A study of Homo sapiens with 2 samples.

Results

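The regions described here are the stretches of open chromatin found at 9 genes that encode transcription factors of B-lineage identity, PAX5, EBF1, IKZF1, BACH2, FOXP1, TCF4, ETS1, FOXO1 and MEF2C, in the mantle cell lymphoma line Z-138. They were taken by position alone, as every deposited ATAC-seq peak overlapping 1 of 9 fixed hg19 spans that together cover 2.99 Mb. This gave 78 of 55124 regions in the control library and 51 of 41540 in the knockdown library, on chromosomes 1 to 22 and X. ATAC-seq maps open chromatin by letting a transposase cut and tag accessible DNA. The control library was made from Z-138 cells with a control shRNA and the knockdown library from Z-138 cells with an shRNA knockdown of SMARCA4, with 1 library per group. Both cultures received doxycycline, and the labels name no other treatment. The series asks about SMARCA4 and the response of mantle cell lymphoma lines to ibrutinib with venetoclax, and neither drug is named for these libraries. No test between groups is possible with 1 library each, so values stand side by side. Intervals of counts, shares and ratios cover counting error only, and those of a median cover the spread between regions, which are not replicates. The spread between separate cultures was not measured, so no difference can be set against it.

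SMARCA4 is an ATPase of the SWI/SNF remodelling complexes, which slide and evict nucleosomes and so help to keep enhancers accessible. EBF1 and PAX5 start and then fix the B-cell programme, IKZF1 (Ikaros) and the E protein TCF4 act with them in lymphoid cells, and FOXO1, FOXP1, ETS1, MEF2C and BACH2 shape B-cell maturation, signalling responses and the step towards plasma cells. Genes of this kind are typically read from a promoter and many enhancers spread over long introns, so a span can hold regions of both sorts. Peak lists measure accessibility, not RNA, and no level of any of these factors, or of SMARCA4, is measured here.

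RefSeq promoter sequences (GRCh38.p14) were matched by symbol for 8 of the 9 genes, and ETS1 had no entry. PAX5, EBF1, BACH2 and FOXO1 have a single listed start, and the 250 bases before it are shown because the widest shared region of each of these genes, described further on, lies at the side of its span where transcription starts. The peaks are in hg19, so no peak is placed on these sequences. Capitals mark CG dinucleotides, and each sequence runs 5′ to 3′ on the minus strand, which is the strand of all 4 genes.
PAX5, chr9:37034269-37034518: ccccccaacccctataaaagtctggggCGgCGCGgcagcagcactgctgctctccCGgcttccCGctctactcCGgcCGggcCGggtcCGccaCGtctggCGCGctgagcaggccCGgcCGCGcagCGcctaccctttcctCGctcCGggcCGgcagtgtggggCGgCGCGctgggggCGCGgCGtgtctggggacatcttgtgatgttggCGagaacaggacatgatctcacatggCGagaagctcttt
EBF1, chr5:159097957-159098206: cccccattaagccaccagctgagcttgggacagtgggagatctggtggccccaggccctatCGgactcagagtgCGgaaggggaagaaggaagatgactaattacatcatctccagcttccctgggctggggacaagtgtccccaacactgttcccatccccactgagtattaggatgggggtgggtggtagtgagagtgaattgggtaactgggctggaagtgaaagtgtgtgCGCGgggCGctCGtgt
BACH2, chr6:90296844-90297093: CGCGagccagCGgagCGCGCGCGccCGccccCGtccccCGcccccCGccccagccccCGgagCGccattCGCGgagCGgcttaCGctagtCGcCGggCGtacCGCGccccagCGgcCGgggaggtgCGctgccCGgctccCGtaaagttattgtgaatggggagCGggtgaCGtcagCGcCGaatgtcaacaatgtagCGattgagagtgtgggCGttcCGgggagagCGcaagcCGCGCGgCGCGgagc
FOXO1, chr13:40666642-40666891: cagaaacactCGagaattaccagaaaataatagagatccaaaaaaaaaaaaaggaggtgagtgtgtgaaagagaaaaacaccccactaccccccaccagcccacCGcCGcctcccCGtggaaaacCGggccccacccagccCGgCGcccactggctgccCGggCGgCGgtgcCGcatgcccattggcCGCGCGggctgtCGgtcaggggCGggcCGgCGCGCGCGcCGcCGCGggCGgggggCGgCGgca

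The promoters of PAX5, BACH2 and FOXO1 are rich in CG, with 27, 40 and 27 CG dinucleotides, against a median of 11 over 34796 distinct RefSeq promoters of the same length. The EBF1 sequence has 6. On both strands, 7 motifs known for such factors were searched: TGGGAA for IKZF1, CCGGAAG for ETS factors, TGTTTAC for forkhead factors, CAGGTG for E proteins, TGANTCA for BACH2 and AP-1, and the longer EBF1 palindrome and MEF2 site. These occur in 20.8%, 8.5%, 2.98%, 17.5%, 6.59%, 1.06% and 2.37% of all promoters in that order. A match is one of letters only, and no match says only that the letters are not in these bases. Counting both strands, the single match was 1 copy of TGGGAA in the EBF1 sequence.

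Depth sets what can be seen. The lists give no read totals, but the fold and p-value of each peak fix its summit pileup, the number of reads stacked at the summit. If the genome size used was 2.7 Gb, the control library held 6.89 M reads and the knockdown library 9.76 M. With equal accessibility a knockdown summit would hold 1.34 times the control reads. Member summits held 3 to 23 control reads and 5 to 35 knockdown reads, so single regions carry wide counting errors. Summit pileups over all paired regions of the genome had a median depth-scaled log2 ratio of -0.24, knockdown over control, and member values are read against that shift.

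Each of the 9 spans held fewer regions in the knockdown than in the control library. The 51 knockdown regions were 65.4% of the 78 control regions (exact 95% interval 45 to 94.3%), where the whole genome gave 75.4%, a value inside that interval. Intervals of such percentages treat both lists as independent counts, although many regions are in both. FOXP1 had the most regions, 19 control and 15 knockdown. TCF4 had 13 and 8, BACH2 11 and 7, IKZF1 10 and 7, and EBF1 7 and 5. PAX5 had 5 and 3, FOXO1 5 and 2, ETS1 4 and 2, and MEF2C 4 and 2. Per 100 kb, IKZF1 was the densest, with 5.56 control and 3.89 knockdown regions, and EBF1 the sparsest in the control library, with 1.56 and 1.11. Open DNA in the spans measured 13.9 kb by the control list and 9.11 kb by the knockdown list, or 65.7%, against 82.0% over the genome. Windows of the same length on both sides of every span held 147 control and 93 knockdown regions, or 63.3% (48.3 to 82.6%), an interval that holds the value of the spans. Open DNA in these windows by the knockdown list was 69.5% of that by the control list. The lengths have no counting interval of their own.

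**Figure D1:**
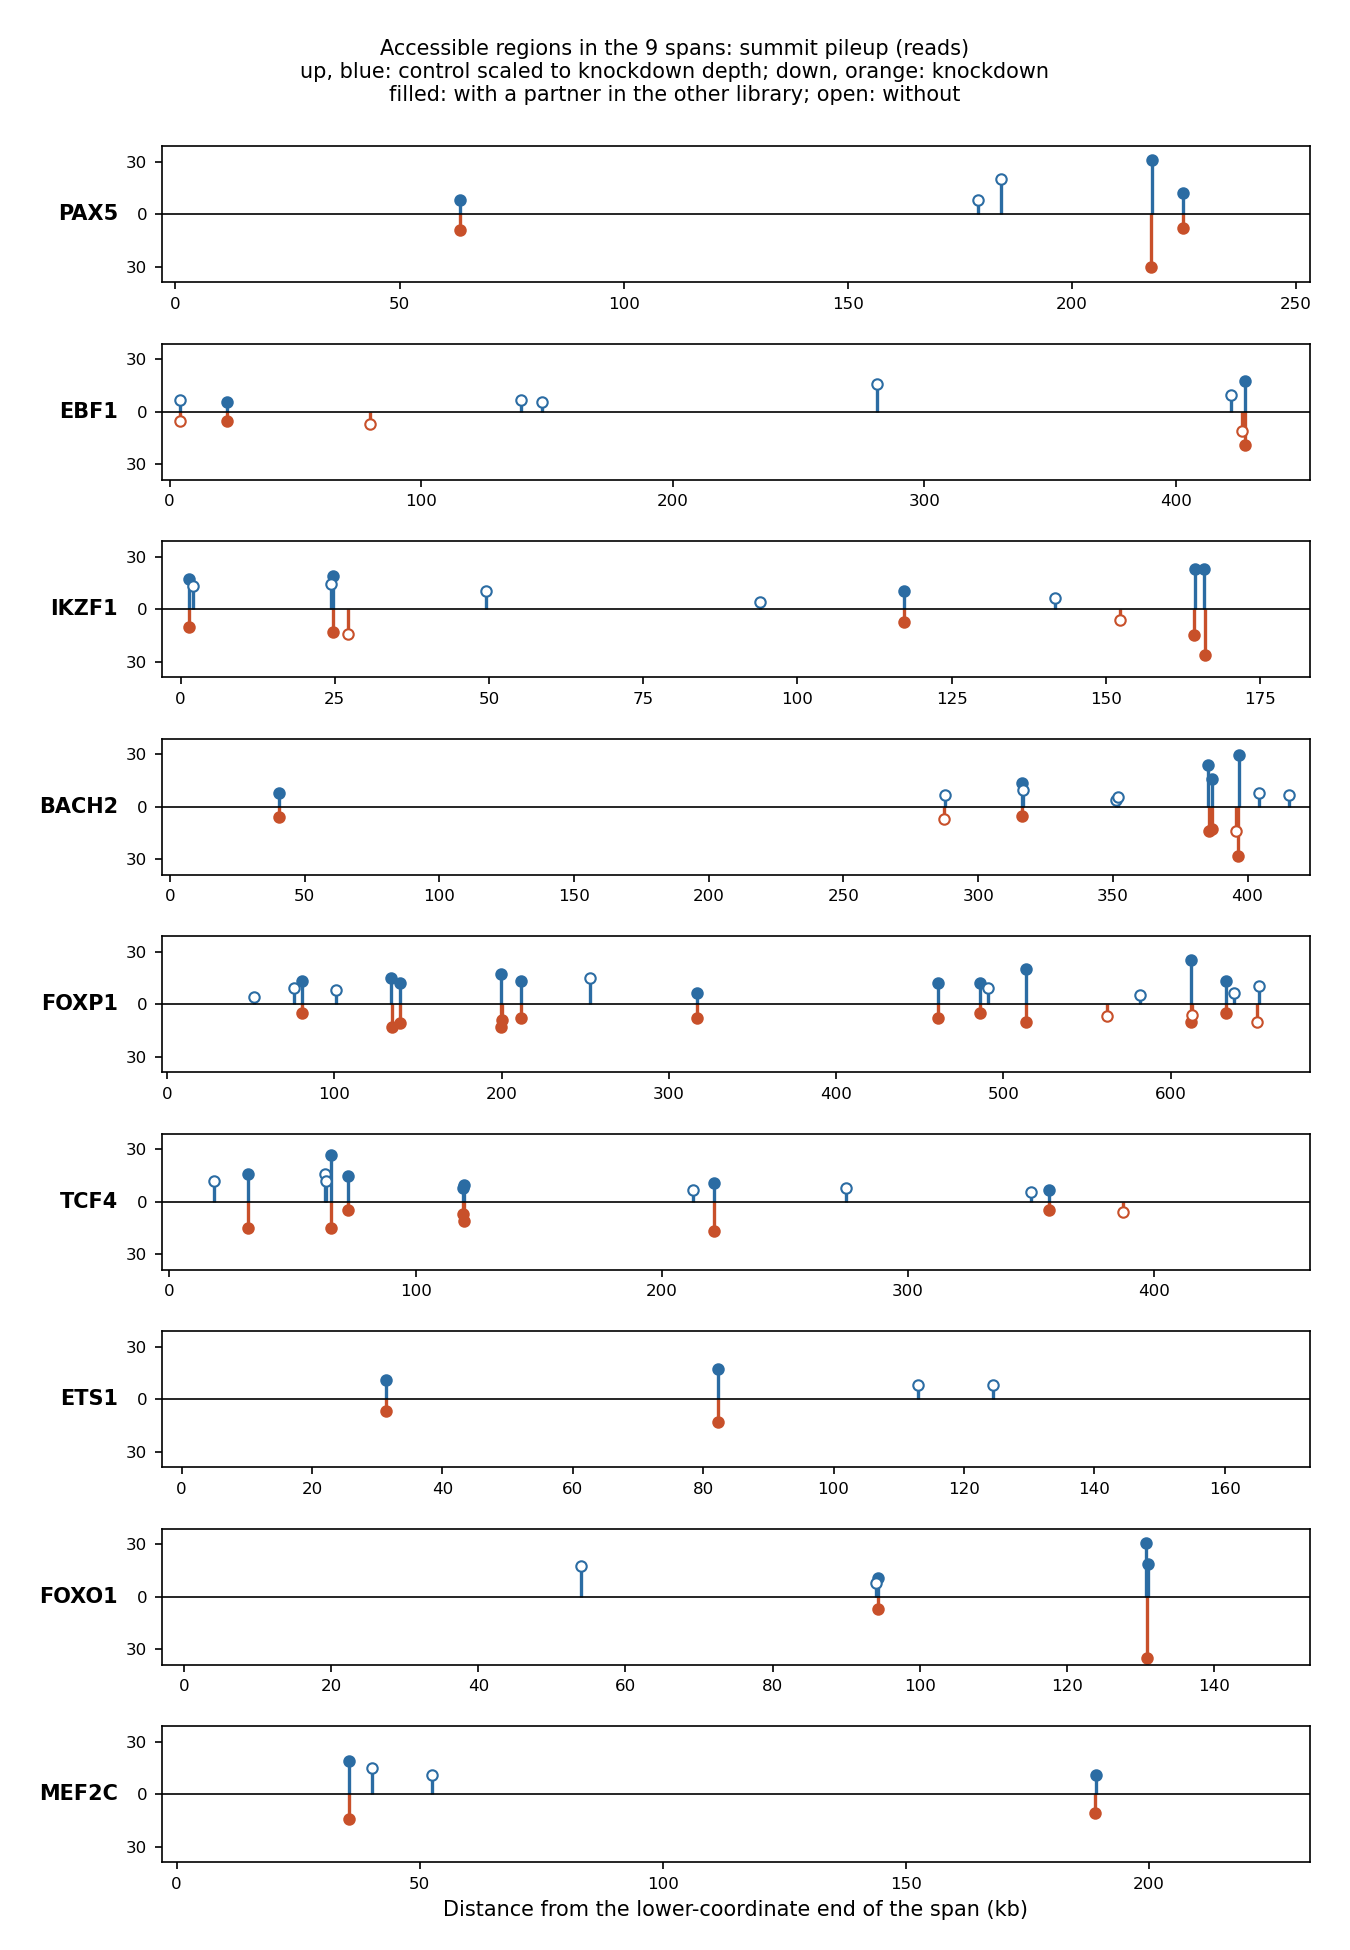
Summit pileup in reads (vertical) against distance in kb from the lower-coordinate end of each span (horizontal), with control regions up, multiplied by 1.34 to match knockdown depth, and knockdown regions down. Filled points have a partner in the other library; open points (38 control, 11 knockdown) have none.

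Regions sharing 1 bp or more between the libraries were called shared, and each is the other's partner. Among the 78 control regions 40 were shared, or 51.3% (39.7 to 62.8%), where 60.5% of all control regions of the genome were. The other 38, or 48.7%, were control-only, against 39.5% over the genome. Member regions were somewhat weaker than the average region, with a median fold over background of 5.86 against 6.45 in the control list. The genome-wide share at the same fold was 55.5%, inside the interval of the members. Among the 51 knockdown regions 40 were shared, or 78.4% (64.7 to 88.7%), against 79.4% over the genome. The other 11, or 21.6%, were knockdown-only, against 20.6%. By gene, the shared control regions were 11 of 19 at FOXP1, 7 of 13 at TCF4, 5 of 11 at BACH2, 5 of 10 at IKZF1, 3 of 5 at PAX5 and at FOXO1, 2 of 4 at ETS1 and at MEF2C, and 2 of 7 at EBF1. EBF1 had the lowest share, 28.6%, but its interval of 3.67 to 71% held the values of all other genes. In the flanking windows 76 of 147 control regions were shared, or 51.7% (43.3 to 60.0%), near the share in the spans, and there the 61.2% given by fold lay just above the interval.

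**Figure D2:**
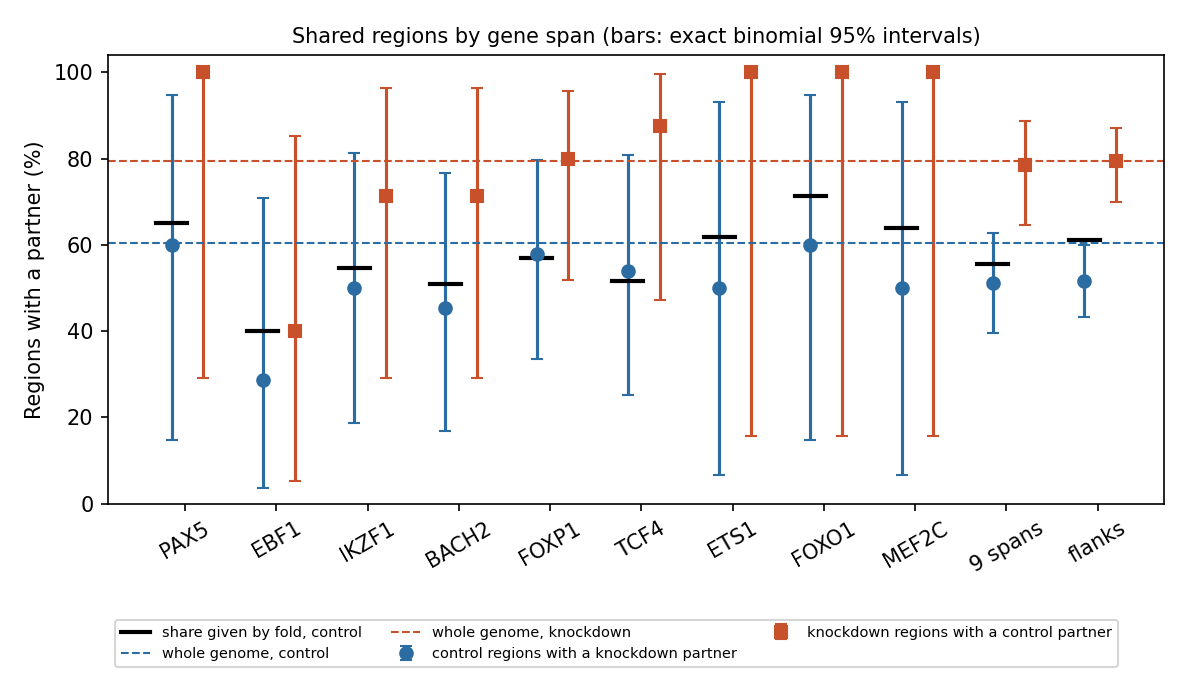
Share of regions with a partner in percent (vertical) by gene span, for the 9 spans together and for their flanks; circles are control regions, squares knockdown regions, bars exact binomial 95% intervals, black marks the genome-wide share of control regions at the same fold, and dashed lines the whole genome (60.5% and 79.4%). The interval of each single gene span covers the black mark.

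Wide regions were mostly present in both libraries. Of 12 control member regions of 300 bp or more, 11 had a knockdown partner, and the genome-wide share at that width was 95.1%. The exception lay at ETS1, from 128422855 to 128423167 on chromosome 11, with 6 reads at its summit. The widest control region had a partner in all 9 spans, and the control region of highest fold had one in 8, EBF1 being the exception. Strong regions were mostly shared too, though a few were not. Of 17 control member regions with a fold of 8 or more, 13 had a partner (76.5%, 50.1 to 93.2%), against 90.1% of the 18107 such regions in the genome. The 4 without one made up 23.5% (6.81 to 49.9%), against 9.91%. In the knockdown list all 10 member regions of that fold had a control partner, as did 16110 of 16459 such regions in the genome. A count of 0 among 10 allows a share without one of up to 30%.

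At the 40 pairs, knockdown summits held on median as many reads as control summits, a raw ratio of 1, where the median over all pairs of the genome was 1.13 and depth alone would give 1.34. After scaling by depth, the member pairs had a median log2 ratio of -0.42 (95% interval of the median -0.62 to -0.13), against -0.24 for the genome. The ratio lay below 0 in 31 of 40 pairs, and in 70.3% of all pairs. At the limit of 2-fold, 7 pairs (17.5%, interval 7.34 to 32.8%) were lower in the knockdown library, against 11.0% of all pairs. No member pair was 2-fold higher, where 1.38% of all pairs were, and a count of 0 among 40 allows up to 7.5%. Of these lower pairs 5 lay at FOXP1, 1 at TCF4 and 1 at BACH2. The direction against the genome depends on the scaling. Set to the reads in the 10 kb around each region, which could be read in both libraries for 32 pairs, the member median was -0.061 and the genome median -0.13. None of those 32 pairs was then 2-fold lower, which allows up to 9.38%, against 3.10% of all such pairs. The 10 kb window includes the region's own reads, so a change at a summit also moves the value it is scaled by. Of the 7 pairs lower by depth, 5 are among the 32 and had ratios of -0.79 to -0.51 by local reads. The other 2, at TCF4 (-1.56 by depth) and FOXP1 (-1.27), have no local value in the knockdown list and could not be rescaled. The flanking windows had a median of -0.57 over 76 pairs by depth and -0.23 over 62 pairs by local reads, both below the members.

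**Figure D3:**
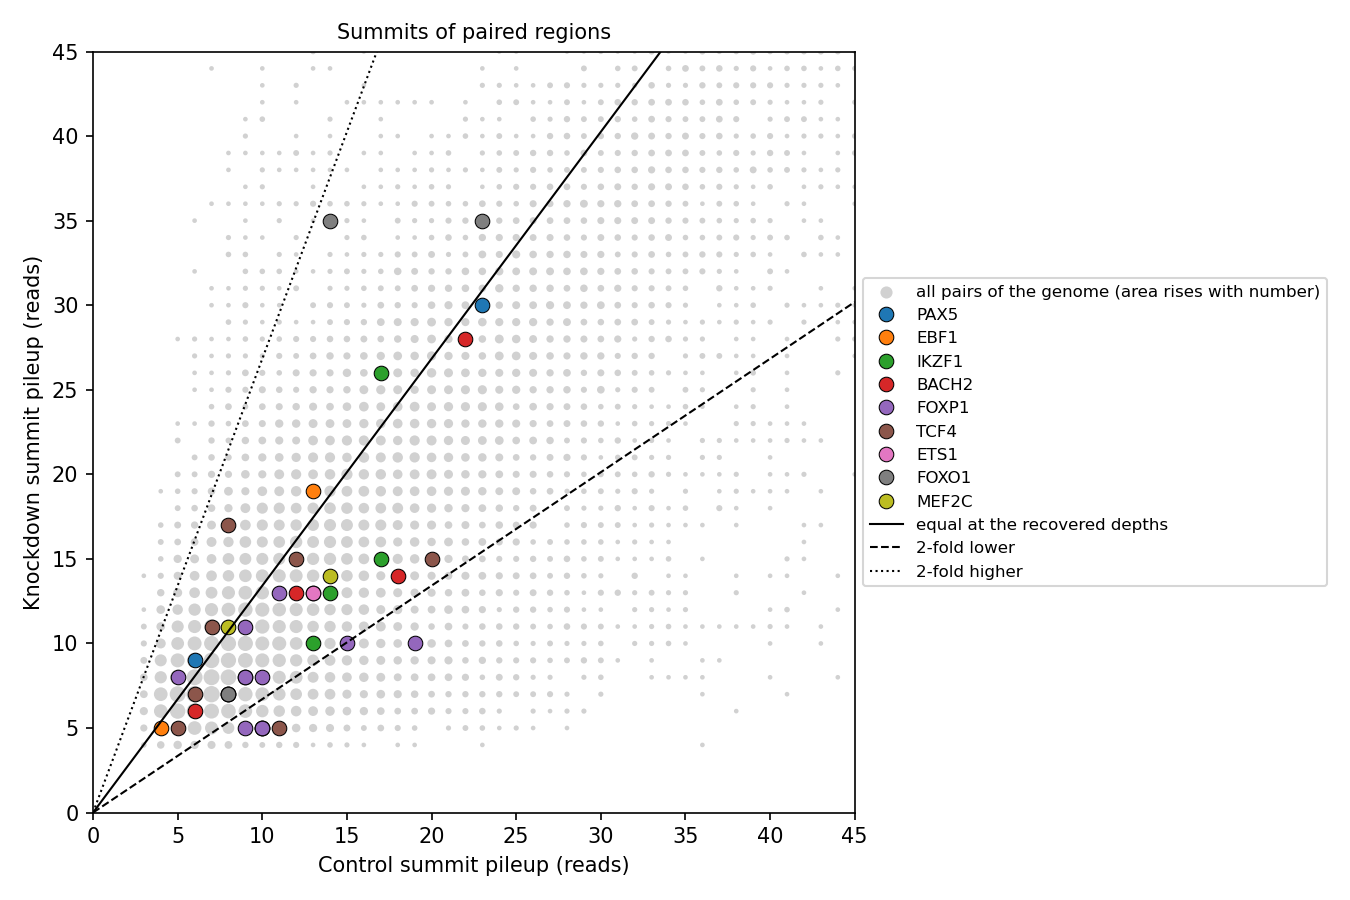
Knockdown summit pileup (vertical) against control summit pileup (horizontal) in reads, up to 45 on each axis, for the 40 member pairs coloured by gene and for all pairs of the genome in grey; lines mark equality at the recovered depths and 2-fold limits on both sides. Of the member pairs, 7 lie below the dashed line, 5 of them at FOXP1, and 0 lie above the dotted line.

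PAX5 encodes the paired-box factor that holds cells in the B lineage. Its leading region, on chromosome 9 from 37027562 to 37027992, was both its widest and its strongest in the control library, at 431 bp, 23 reads and a fold of 10.4. The knockdown partner, from 37027524 to 37027938, held 30 reads at a fold of 12.4, where depth would give 30.9. The log2 ratio was -0.04 (-0.87 to 0.81). A region from 37034727 to 37034853 had 9 and 8 reads, and one from 36873407 to 36873523 had 6 and 9. The remaining control regions had no knockdown partner. The stronger of them, from 36994009 to 36994258, held 15 reads (8.40 to 24.7) at a fold of 9.28, and 33.3 kb separated it from any knockdown region. The weaker one, from 36988938 to 36989031, had 6 reads. The knockdown list added no region at PAX5.

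EBF1, the early B-cell factor that opens B-cell genes ahead of PAX5, had the lowest shared proportion. The shared region at the start side, on chromosome 5 from 158527254 to 158527560, had 13 control and 19 knockdown reads, a log2 ratio of 0.12 (-0.97 to 1.26). The other shared region, from 158122620 to 158122713, was weak, with 4 and 5 reads. The control region of highest fold, from 158380997 to 158381282, held 12 reads (6.20 to 21.0) at a fold of 8.90 and had no partner. The closest knockdown region lay at 145 kb, the longest such distance among the members. The other control regions without a partner had 4 to 7 reads. Knockdown-only regions lay from 158179612 to 158179734 with a fold of 5.07 and 7 reads, from 158526301 to 158526416 with 11 reads and 837 bp from a control region, and from 158104285 to 158104406 with 5 reads and 96 bp from one.

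IKZF1, which encodes the zinc-finger factor Ikaros, held a close pair of regions at the far end of its span. The first, on chromosome 7 from 50485848 to 50486021, had the highest fold at the gene in both lists, 9.37 with 17 control reads and 13.5 with 26 knockdown reads. The log2 ratio was 0.19 (-0.75 to 1.16), and the region measured 174 bp by the control list and 287 bp by the knockdown list. Its neighbour, from 50484301 to 50484490, was the widest control region of the span and had 17 and 15 reads, a ratio of -0.60 (-1.71 to 0.49). At the start side, the region from 50321278 to 50321466 had 13 and 10 reads and that from 50344636 to 50344764 had 14 and 13. The remaining pair, from 50437269 to 50437363, had 8 and 7 reads. Control regions without a partner had 3 to 11 reads; that of highest fold, from 50369466 to 50369620, held 8 reads at a fold of 6.72. The leading knockdown-only region, from 50346993 to 50347150, held 14 reads at a fold of 5.5, which corresponds to 10.4 reads at control depth.

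BACH2 encodes a repressor that delays plasma-cell differentiation. Its regions crowded towards the start side of the span. The widest, on chromosome 6 from 91006432 to 91006919, had 22 control and 28 knockdown reads, close to the 29.5 given by depth, and a log2 ratio of -0.08 (-0.93 to 0.80). Its width was 488 bp by the control list and 282 bp by the knockdown list, and a knockdown-only region of 14 reads lay from 91005787 to 91005903, 528 bp from it. The knockdown-only region of highest fold, from 90897180 to 90897271, held 7 reads at a fold of 6.05. The control region of highest fold, from 90995372 to 90995614, held 18 reads at a fold of 10.7 against 14, a ratio of -0.79 (-1.91 to 0.30), and its neighbour from 90996705 to 90996849 had 12 and 13. The region from 90926114 to 90926221 was 2-fold lower, with 10 and 5 reads (-1.42, interval -3.32 to 0.26). All 5 control regions of the smallest width, 94 bp, had no partner, and most such regions of the genome had none either (6878 of 8687). The 6 control-only regions of the span had at most 7 reads. That of highest fold lay from 91014142 to 91014284, with a fold of 5.58 and 6 reads.

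FOXP1, a forkhead factor needed in B-cell development, had the lowest median ratio of the 9 genes, -0.75. Of its 11 pairs, 10 had a depth-scaled ratio below 0, against 70.3% of all pairs of the genome, and 5 were at least 2-fold lower, against 11.0%. The summits of its pairs summed to 120 control reads (99.5 to 143) and 96 knockdown reads (77.8 to 117), where depth would give 161. The log2 ratio of the sums was -0.75 (-1.15 to -0.35), against -0.32 for the same sums over the genome, a value just outside that counting interval. The strongest control region of all members, on chromosome 3 from 71591738 to 71592057, held 19 reads at a fold of 12, and its partner 10 reads, a ratio of -1.35 (-2.62 to -0.17). It was the 1 pair of the 40 whose counting interval excluded equality at the recovered depths. The same interval holds the genome median of -0.24, and how many pairs of the genome exclude equality was not counted. Other lower pairs lay from 71493189 to 71493469 with 15 and 10 reads, from 71060323 to 71060552 and from 71613015 to 71613236 with 10 and 5 reads each, and from 71466187 to 71466312 with 9 and 5. The only pair above 0, from 71296903 to 71296996, had 5 and 8 reads.

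The 10 kb around the FOXP1 regions held 589 control and 602 knockdown reads over the 9 pairs with both values, a ratio of 1.02. The same ratio was 1.26 over all pairs of the genome, 1.12 in the flanking windows, 1.07 at BACH2 and 1.08 at IKZF1, and the recovered read numbers would give 1.42. The 10 kb stretches of neighbouring regions overlap, so some reads are counted more than once in these sums. Around the strongest FOXP1 region the window held 71 and 58 reads, those of the region itself included. Scaled to these local reads, the median ratio of these 9 pairs was -0.24 (-0.60 to 0.09), and 0 of 9 pairs were 2-fold lower, a count that allows up to 33.3%. Of the 5 FOXP1 pairs lower by depth, 4 are among these 9, and the pair from 71466187 to 71466312 has no local value in the knockdown list. How local read density bears on the lower summits was not tested, and FOXP1 was singled out after its values were seen. Without FOXP1, 2 of the remaining 29 member pairs were 2-fold lower. The widest control region of the span, from 71179715 to 71180060, had 13 reads in both libraries, and the knockdown list split it into regions of 170 and 95 bp. The first of these, from 71179760 to 71179929, had the highest knockdown fold at the gene, 8.31. The strongest control-only region, from 71232830 to 71232975, held 11 reads (5.49 to 19.7) at a fold of 8.72, with the nearest knockdown region at 41.0 kb. The leading knockdown-only region, from 71541841 to 71541938, held 7 reads at a fold of 6.05.

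FOXO1, the forkhead factor that PI3K and AKT signalling sends out of the nucleus, had 2 of its 3 pairs above 0, both with the same knockdown region. At its start side, on chromosome 13, the control list held a region from 41240540 to 41240916 with 23 reads at a fold of 10.2 and a second from 41240996 to 41241135 with 14 reads. The knockdown list held 1 region across both, from 41240652 to 41241096, with 35 reads at a fold of 13.4, the highest summit of any member. Against the first control region the ratio was 0.18 (-0.62 to 1.01). Against the second it was 0.90 (-0.03 to 1.91), the highest value among the member pairs, but the knockdown summit lies 4 bp from the first control summit and 240 bp from the second, so this value sets different summits side by side. The region from 41204321 to 41204441 had 8 and 7 reads. Further into the span, the region from 41163876 to 41164091 was control-only with the highest fold of any unshared member, 10.0, and 13 reads (6.92 to 22.2). The closest knockdown region lay at 40.2 kb. A further control-only region of 6 reads lay 152 bp from a knockdown region.

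**Figure D4:**
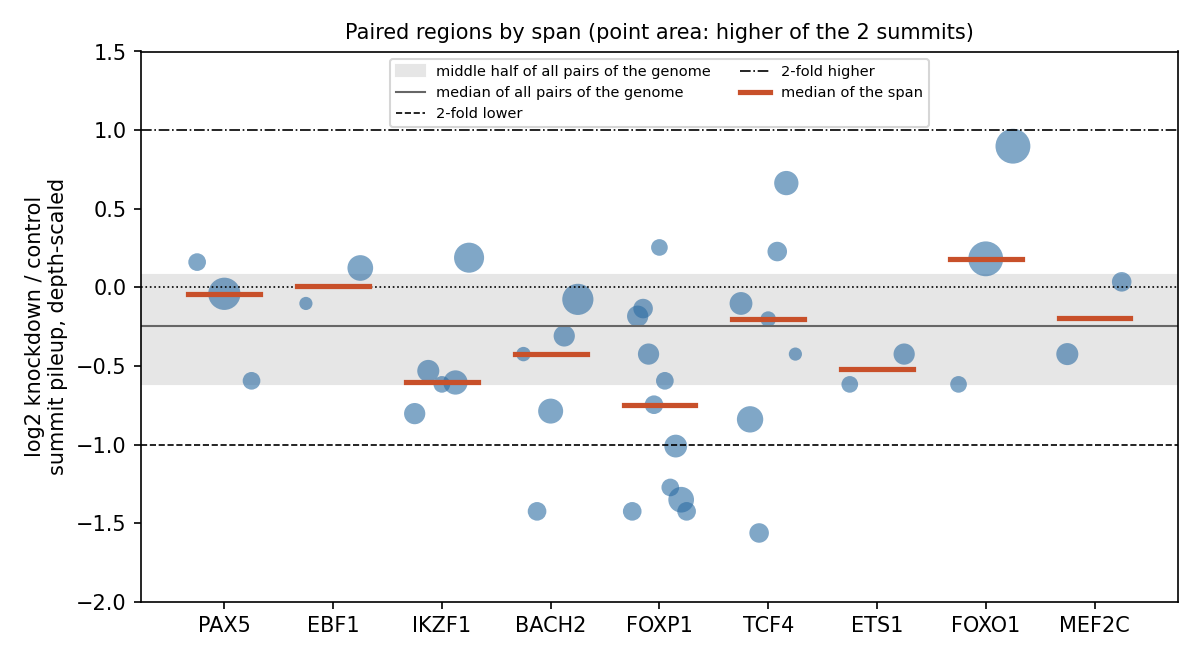
Depth-scaled log2 ratio of knockdown to control summit pileup (vertical) for each of the 40 pairs by gene (horizontal), with point area following the higher summit and orange bars the median of the span; the grey band and line are the middle 50% and the median of all pairs of the genome (-0.24). The FOXP1 median is -0.75 and that of FOXO1 0.18.

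TCF4, an E protein that binds E-box sequences, had its strongest regions away from the start side. The widest control region, on chromosome 18 from 52935234 to 52935708, had 20 and 15 reads, a ratio of -0.84 (-1.91 to 0.20), and its knockdown partner was 199 bp wide against 475 bp. The control region of highest fold, from 52942394 to 52942551, had the lowest ratio of all member pairs, at folds of 9.29 and 4.54, with 11 and 5 reads (-1.56, interval -3.44 to 0.08). The region from 53090904 to 53091108 had 8 control and 17 knockdown reads, a ratio of 0.66 (-0.63 to 2.08), and the highest knockdown fold at the gene, 10.9. The region from 52901938 to 52902188 had 12 and 15 reads. Control-only regions had 4 to 12 reads; that of highest fold, from 52887899 to 52888007, held 9 reads at a fold of 7.37. A single knockdown-only region, from 53257040 to 53257219, held 6 reads at a fold of 5.30.

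ETS1, a founding member of the ETS family, and MEF2C, a MADS-box factor that acts downstream of B-cell receptor signals, each had a partner at 2 of 4 control regions and no knockdown-only region. At ETS1 the leading region in both lists, on chromosome 11 from 128392146 to 128392478, had 13 reads in both libraries, folds of 9.71 and 8.09, and a ratio of -0.42 (-1.65 to 0.80). The 10 kb around it held 47 control and 82 knockdown reads. The region from 128341252 to 128341430 had 8 and 7 reads. Both control-only regions of ETS1 had 6 reads and a fold of 5.65. At MEF2C the leading region in both lists, on chromosome 5 from 88025299 to 88025661, had 14 reads in both, with summits 276 bp apart and a ratio of -0.42 (-1.60 to 0.75). The region from 88179012 to 88179105 had 8 and 11 reads and measured 94 bp by the control list but 291 bp by the knockdown list. Of the control-only regions, that from 88042526 to 88042683 held 8 reads at a fold of 7.26, and that from 88030181 to 88030366 held 11 at 6.44.

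For each unshared region, its summit was scaled to the depth of the other library and set beside the lowest summit which that library listed anywhere at a background at least as high. Among the 38 control-only regions, 15 had a scaled summit at least 2 times that lowest value, or 39.5% (24.0 to 56.6%), near the 41.7% of all 21766 control-only regions of the genome. The count depends on the limit, since 6 of the 15 lay below 2.1 times, and 7 reached 2.5 times (18.4%, against 15.9% over the genome). The highest scaled summit, though not the highest multiple, was at PAX5, where 15 reads correspond to 20.1 at knockdown depth and summits of 6 reads were listed. At FOXO1 the corresponding values were 17.4 and 5, at EBF1 16.1 and 5, and at FOXP1 14.8 and 5. These are the 4 control-only regions with a fold of 8 or more. None of the 11 knockdown-only regions reached 2 times the lowest value of the control list, a count of 0 among 11 that allows up to 27.3%, against 7.32% over the genome. This comparison assumes that the local background scales with depth.

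**Figure D5:**
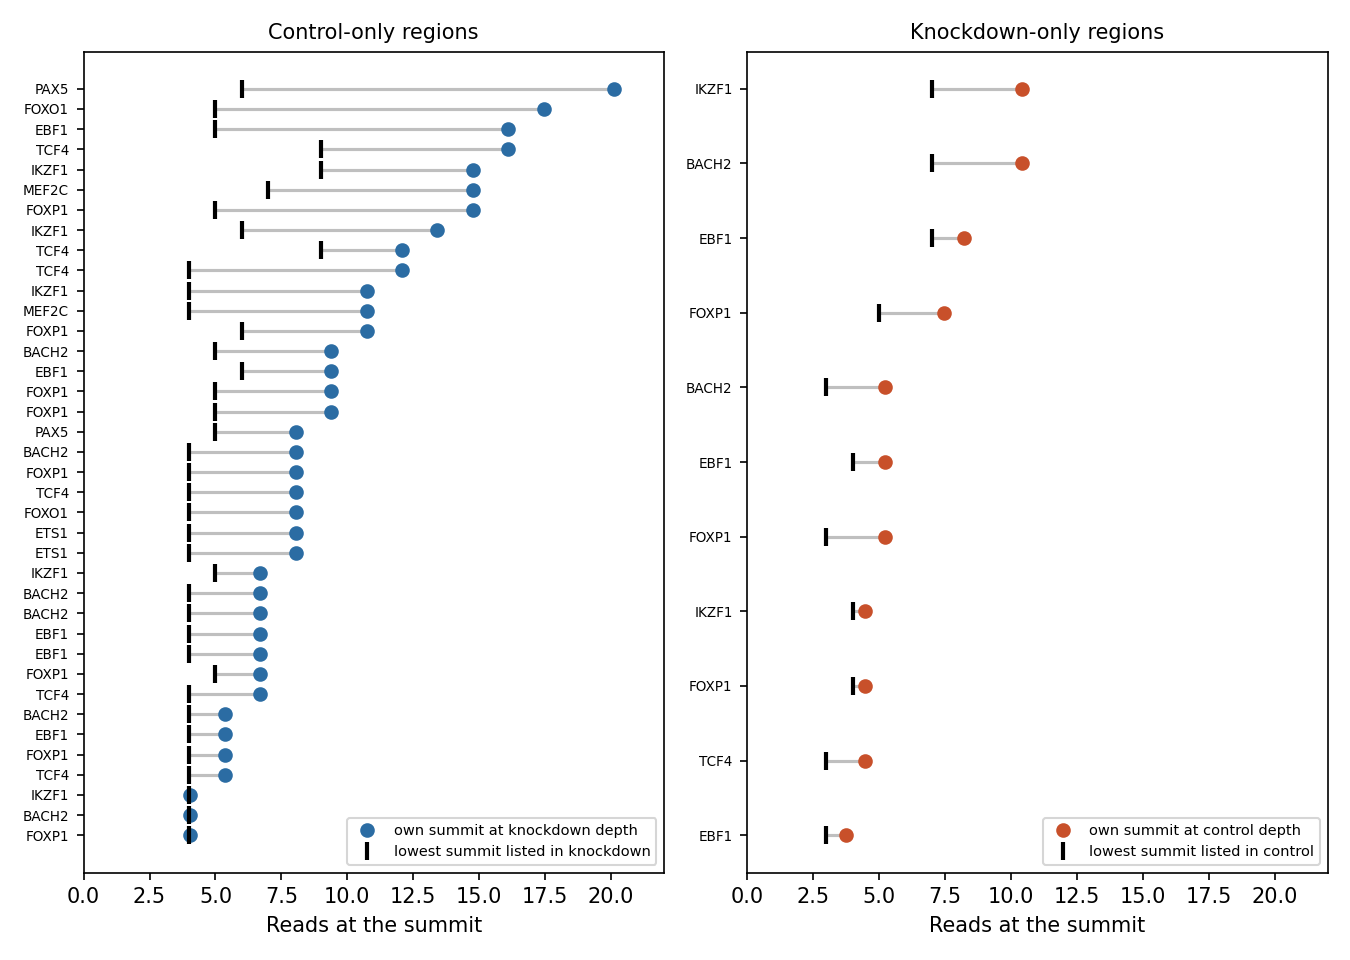
Reads at the summit (horizontal) for each region without a partner, named by gene (vertical), at the depth of the other library (points), beside the lowest summit listed by that library at a background at least as high (ticks). The points run up to 20.1 reads for the 38 control-only regions and up to 10.4 reads for the 11 knockdown-only regions.

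The position within a span was compared for the 8 genes whose strand the promoter table gives, 7 on the minus and 1 (IKZF1) on the plus strand. In the 25% of each span nearest the side where transcription starts, 16 of 28 control regions were shared, or 57.1% (37.2 to 75.5%). In the rest of the spans 22 of 46 were shared, or 47.8% (32.9 to 63.1%), and the intervals overlap widely. All 6 start-side regions of a fold of at least 8 had a partner, and a count of 0 among 6 allows a share without one of up to 50%. In the rest of the spans 4 of 10 such regions had none, against 9.91% over the genome, namely those at PAX5, EBF1, FOXP1 and FOXO1 given above. Depth-scaled ratios did not separate these parts, with medians of -0.48 over 16 and -0.42 over 22 pairs. Knockdown-only regions were 7 of 22 at the start side and 4 of 27 in the rest, against 20.6% over the genome. The division at 25% was chosen after the values had been seen, and the spans extend beyond the genes by an unknown length. With the larger start side tried as an alternative, 1 of 7 start-side regions of a fold of at least 8 had no partner. In the rest it was then 3 of 9. The PAX5 region, at 26.3% of its span from the start side, changed sides. The start side is the span end given by the strand alone, while IKZF1 has 3 listed starts, FOXP1 6, MEF2C 7 and TCF4 10. Where these starts lie in the spans was not determined, so the parts do not separate promoters from other regions.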

How the data were processed

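ATAC-seq was analysed in 2 libraries of Z-138 cells, grouped by the genotype label. Tools listed in the submitters' processing notes are MACS2, BWA and bcl2fastq 2.17.1.14, and the build is hg19. Their parameters, any shift of insertion sites and any removal of mitochondrial or duplicate reads are not stated there. The authors deposited 1 peak list per library, called separately, with a fold (ratio of summit to background, 1 read added to each), a −log10 p-value, a −log10 q-value, a score and a summit position per peak, per the narrowPeak layout and the values. The largest deposited q-value was 0.0479 for control peaks and 0.0499 for knockdown peaks.

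Summit pileup and background were solved for each peak from fold and p-value by a Poisson tail. They gave back the deposited −log10 p within 4.15e-05. In lists rebuilt from the solved values by the same formula, pileups came back exactly for all 55124 and 41540 peaks. The rebuilt lists check the arithmetic only, not the extension length or the depth. Read numbers follow from the lowest background (0.24 and 0.322 reads), the shortest peak as extension length (94 and 89 bp) and the assumed 2.7 Gb. Reads without molecular identifiers are not independent molecules. Peaks on chromosome Y were left out. A partner shares at least 1 bp; pairs use the partner of highest fold, and summed summits count a partner once. The share at the same fold averages genome-wide shares over 13 fold bands. Intervals are exact (Clopper-Pearson, Poisson, or a conditional binomial for ratios) at 95%. The limits given for a count of 0 are not exact and are 3 counts divided by the number of regions or pairs. Intervals of a median are taken from the ranked ratios of the pairs by binomial ranks, as if the pairs were independent.

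Named regions were, per span, the control region of highest fold, the widest, the knockdown region of highest fold, and the unshared regions of highest fold, besides the extreme pairs; others named were chosen after their values were seen. The members and lists were chosen with earlier results of these data known. No hg19 annotation or sequence was used, so exon, intron and promoter positions are not given. Alternatives varied overlap, q-value, list length, span edges, strength measure and scaling. Python 3.11.15, numpy 2.4.6, pandas 2.3.3, scipy 1.17.1 and matplotlib 3.10.9 were used.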

Additional observations from a re-analysis of the deposited data

How the results depend on the processing

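With 1 library per group no replicate could be left out. No paired analysis was possible because each group has 1 library. With reciprocal overlap of 50%, the shared control regions went from 51.3% to 37.2% and the shared knockdown regions from 78.4% to 56.9%, where the genome gave 49.0% and 65.0%. Scaled to local reads, which include those of the region itself, the median log2 ratio went from -0.42 to -0.061, and no pair was 2-fold lower. Only 32 of 40 pairs have local reads in both lists, among them 5 of the 7 pairs called lower by depth; the cause was not tested. Scaled by the genome median, 6 pairs were lower and the median was -0.18. Over the alternatives run for each, the knockdown regions were 61.0 to 87.9% of the control regions and the covered length 64.2 to 78.7%. Both highest values come from lists of equal length, where the genome gives 100% and 96.2%. The shared control regions minus the share at the same strength came to -4.20 percentage points and ranged from -7.77 to -2.08. Leaving out each gene span in turn left the median at -0.42, which is the value of equal raw reads and is held by 5 tied pairs. The covered length in lists of equal length, the limit of 2.5 times the lowest listed summit, the anchor on knockdown regions and the position within spans, including a start side of a larger part of the span (51.4% shared, median -0.56), were added after seeing the data. Median member summits of 8 and 10 reads limit what a single region can show.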
